A study of Mus musculus with 24 samples.

Results

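Major urinary protein (Mup) genes encode small lipocalins, barrel-shaped carriers of volatile compounds that the mouse liver secretes into the blood and the kidney passes into the urine. In scent marks these proteins release pheromones slowly, and Mup20, also called darcin, is itself a male pheromone. Their transcription in hepatocytes depends on the pulsatile growth hormone pattern of adult males, acting through Stat5b, and on androgens and thyroid hormone, so the genes are a textbook readout of the male liver programme. The members are 7 genes of this family, Mup1, Mup3, Mup4, Mup5, Mup19, Mup20 and Mup21, of 22911 genes with a RefSeq symbol on the array. They were chosen by name, with every probe whose target accession maps to one of these symbols. This gave 10 of 56605 probes. Mup3, Mup20 and Mup21 have a pair of probes each and the others have 1 probe.

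White adipose tissue (WAT), kidney, lung and liver of C57BL/6J males gave RNA for 24 Agilent arrays in 1 colour. In each tissue 3 mice aged 10 weeks (10W, young) were set against 3 aged 90 weeks (90W, aged), and the aged livers carry the numbers 1, 2 and 4. The labels name no transgene, allele or treatment in any of these groups, and whether 1 mouse gave several tissues is not known. The replicates are separate samples by their labels, and p-values measure the spread between them. The 6 arrays of a tissue, both ages, lie on 1 slide, and each tissue has its own slide, so that tissue and slide cannot be told apart. Levels are log2 processed signal minus the 75th percentile of the array, so that 0 is the signal of a probe brighter than 75% of those on the array. The image software calls each spot well above background or not, and this call held for 58.6% to 71.1% of probes per array. No spot was saturated. Each tissue held the defining genes of its label, with Alb at 8.73 to 9.40 by its marker probe A_55_P2843443 in the liver, Sftpc at 9.10 to 9.71 in the lung, Umod at 7.04 to 8.91 in the kidney and Adipoq at 7.36 to 8.35 in WAT. The hormone gene Lep, also listed as an adipocyte marker, lay at -1.5 to 0.16 in WAT. Aged lung 1 stood apart from the other lungs in hepatocyte genes and in all members, and lung results are given with and without it.

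The members belong to a cluster of tandem gene copies and share most of their sequence. The files hold no probe sequences, so a probe named for one gene may also bind transcripts of its relatives, and values of different members are not independent of each other. Promoters are shown because the members moved together over the liver arrays, and because they let a reader see how alike the copies are upstream. RefSeq promoters on the build GRCm38.p6, from 250 bases before to 50 bases after the gene start, were found for 4 of the 7 members. The array itself carries the build mm9. Capitals mark TATATA and ATCAAT, the latter the core of sites bound by Onecut factors such as Hnf6. In order, the 4 stretches lie on the minus strand at chr4:62087268-62087567, chr4:59960618-59960917, chr4:61782175-61782474 and chr4:62150792-62151091.
Mup3: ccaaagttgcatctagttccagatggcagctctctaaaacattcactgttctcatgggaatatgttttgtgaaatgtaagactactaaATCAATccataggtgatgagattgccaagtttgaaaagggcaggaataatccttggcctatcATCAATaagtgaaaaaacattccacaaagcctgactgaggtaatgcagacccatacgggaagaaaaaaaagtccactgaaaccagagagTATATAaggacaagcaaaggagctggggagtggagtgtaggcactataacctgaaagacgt
Mup4: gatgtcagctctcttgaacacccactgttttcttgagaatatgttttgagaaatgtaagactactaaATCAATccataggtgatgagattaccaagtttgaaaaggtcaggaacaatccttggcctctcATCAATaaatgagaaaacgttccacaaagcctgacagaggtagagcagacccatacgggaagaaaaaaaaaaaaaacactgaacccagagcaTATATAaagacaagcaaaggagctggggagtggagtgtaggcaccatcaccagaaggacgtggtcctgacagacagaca
Mup19: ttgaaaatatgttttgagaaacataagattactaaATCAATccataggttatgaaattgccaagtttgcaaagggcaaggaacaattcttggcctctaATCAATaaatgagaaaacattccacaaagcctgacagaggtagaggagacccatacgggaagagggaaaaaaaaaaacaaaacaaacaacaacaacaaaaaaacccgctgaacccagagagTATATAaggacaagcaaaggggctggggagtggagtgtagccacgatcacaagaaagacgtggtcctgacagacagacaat
Mup21: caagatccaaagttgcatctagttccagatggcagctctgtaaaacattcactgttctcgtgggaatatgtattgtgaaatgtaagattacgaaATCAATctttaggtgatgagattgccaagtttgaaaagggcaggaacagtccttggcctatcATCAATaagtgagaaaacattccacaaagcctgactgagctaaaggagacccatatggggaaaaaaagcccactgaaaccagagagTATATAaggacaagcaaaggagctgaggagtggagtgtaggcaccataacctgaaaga

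Promoters were aligned in pairs, and identity was taken over aligned bases, with gaps and unaligned ends left out. It was lowest for Mup4 and Mup21, at 86.1% (235 of 273 bases), and highest for Mup3 and Mup21, at 93.9% (276 of 294). Mup19 and Mup21 shared the fewest identical bases, 209 of 241 aligned. Searched on both strands, all 4 held TATATA 1 time and ATCAAT 2 times, and no match overlapped another. TATATA occurred in 5.67% of the 32851 promoters of the table. At least 2 matches to ATCAAT occurred in 0.694%. TTCNNNGAA, the palindrome that Stat5 binds, matched none of the 4 and 8.30% of all promoters. TGTTCT, a core sequence that the glucocorticoid and androgen receptors recognize, matched Mup3 and Mup21 and 19.0% of all.

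In the young liver the members were among the brightest probes on the array, and they were far higher there than in any other tissue. The Mup19 probe ranked 3 among all probes on each young liver array. Over the 10 probes, young liver levels ran from 8.0 to 10.66. The corresponding range was -8.02 to -0.35 in the young lung, -7.72 to -0.75 in the young kidney and -4.73 to 3.05 in young WAT. All 10 probes were higher in the young liver than in each of the other tissues, against a background of 18.7% of 44074 probes (limma over all 24 arrays, adjusted p of at most 0.000179). Against WAT the log2 difference ran from 9.19 for Mup19 to 12.49 for Mup5. Against the lung it ran from 12.46 to 15.47 and against the kidney from 11.94 to 16.06. The Mup5 probe was not well above background on any young kidney array, so that its liver level was at least 29686-fold higher than in the kidney. The signal of WAT, lung and kidney was a small part of that in the liver but was measurable for most members. The 10 probes gave 30 readings in each group of 3 arrays, of which 30 in young WAT, 21 in the young lung and 23 in the young kidney were well above background. Young liver stood above aged liver, and aged liver above every other group, without overlap for each of the 10 probes. Below the liver, the next group in order of mean level was young WAT for 8 of them, and the groups below it overlapped with their neighbours for the most part. The plot of levels on each array shows the gap between the liver and the other tissues.

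**Figure D1:**
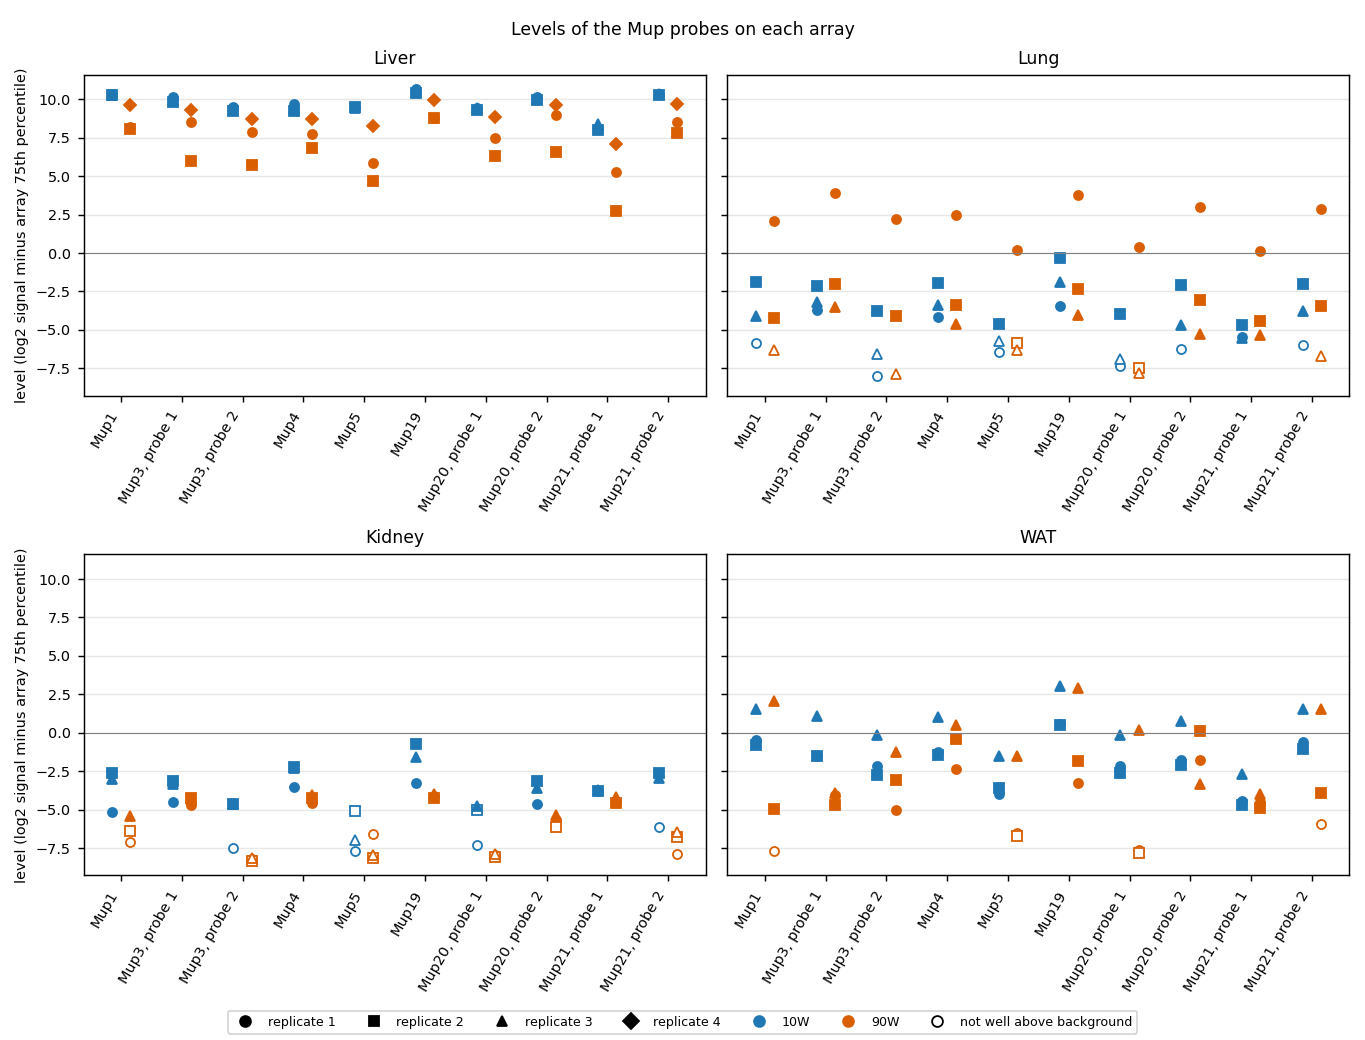
Level of each Mup probe (x axis) on each array, as log2 processed signal minus the 75th percentile of the array (y axis), in 4 tissues, with 3 mice at 10W and 3 at 90W. Filled points were well above background. All liver points at 10W lie between 8.0 and 10.66, the 90W livers lie below them in each probe, and the first 90W lung stands apart from the other lungs.

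All 10 Mup probes were lower in the aged liver, and in every probe all 3 aged livers lay below all 3 young livers. In the test of each probe, 6 of 10 probes fell, those of Mup1, Mup4, Mup5 and Mup19 and 1 each of Mup20 and Mup21 (limma with Benjamini-Hochberg adjustment over 35377 probes, adjusted p from 0.0262 to 0.0484). The background was 16% of the tested probes called lower and 32.7% with all aged livers below all young ones. The median change over the 10 probes was -1.77 on the log2 scale, against -0.20 over all tested probes. The extent differed from mouse to mouse: aged liver 4 was close to the young livers and aged liver 2 was the lowest in 9 of the 10 probes.

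Mup1, which encodes a urinary carrier that has also been linked to glucose metabolism, measured 10.36, 10.27 and 10.26 in the young livers and 8.20, 8.04 and 9.62 in the aged livers. It fell by 1.68 (standard error 0.40, adjusted p = 0.0262), which is 3.20-fold. Mup19, a close relative, measured 10.66, 10.40 and 10.62 in young and 8.76, 8.78 and 9.97 in aged livers, and fell by 1.39 (standard error 0.34, adjusted p = 0.0269). In both genes the first and second aged livers were low and nearly equal, and the remaining aged liver lay between them and the young. In either gene the young livers lay far closer to each other than the aged livers did.

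Mup5, with probe 1 of Mup21, had the largest estimates of the 10 probes, and the order of the pair turned under quantile normalization and without young liver 2 or aged liver 1. Mup5 levels were 9.50, 9.49 and 9.41 in the young livers and 5.83, 4.71 and 8.27 in the aged livers. It fell by 3.20 (standard error 0.80, adjusted p = 0.0296), a 9.17-fold difference of the means. The aged livers of Mup5 were spread over more than the difference between the means. Mup4, a member also known from the nasal and lachrymal glands, measured 9.71, 9.21 and 9.34 in young and 7.73, 6.84 and 8.72 in aged livers. It fell by 1.66 (standard error 0.44, adjusted p = 0.0355).

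Mup20, darcin, was read by probe 1 (A_55_P2051486) at 9.44, 9.32 and 9.47 in young and 7.49, 6.34 and 8.83 in aged livers, and fell by 1.86 (standard error 0.56, adjusted p = 0.0484). Its probe 2 (A_55_P2063654) gave 10.16, 9.95 and 10.05 in young and 9.0, 6.57 and 9.63 in aged livers. Probe 2 had a change of -1.66 (standard error 0.71, adjusted p = 0.121) and did not pass. Both probes put aged liver 2 well below the rest.

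For Mup21 the probes were further apart. Probe 1 (A_55_P2025343) read 8.10, 8.0 and 8.38 in young and 5.29, 2.73 and 7.07 in aged livers, a change of -3.13 (standard error 0.96, adjusted p = 0.0504). Probe 2 (A_55_P2743972) read 10.36, 10.26 and 10.33 in young and 8.52, 7.84 and 9.70 in aged livers, and fell by 1.63 (standard error 0.43, adjusted p = 0.0340). Probe 1 thus missed the threshold narrowly with the wider spread, and aged liver 2 was by far its lowest array.

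Neither probe of Mup3, which encodes a glycosylated form of the protein, passed. Probe 1 (A_52_P232508) read 10.15, 9.85 and 9.95 in young and 8.53, 5.98 and 9.29 in aged livers, a change of -2.05 (standard error 0.77, adjusted p = 0.0850). Probe 2 (A_55_P1971237) read 9.48, 9.26 and 9.32 in young and 7.89, 5.71 and 8.73 in aged livers, a change of -1.91 (standard error 0.69, adjusted p = 0.0777). The estimates were no smaller than those of Mup1 and Mup4, and the spread of the aged livers was wider. Across the 6 liver arrays the 45 pairs of member probes had Pearson correlations from 0.818 to 0.999, as a description of arrays that share their age groups. The 4 other family genes on the array, Mup2, Mup6, Mup17 and Mup18, which are not members, had changes of -2.74, -3.67, -1.34 and -1.36 (limma adjusted p from 0.0229 to 0.0331).

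**Figure D2:**
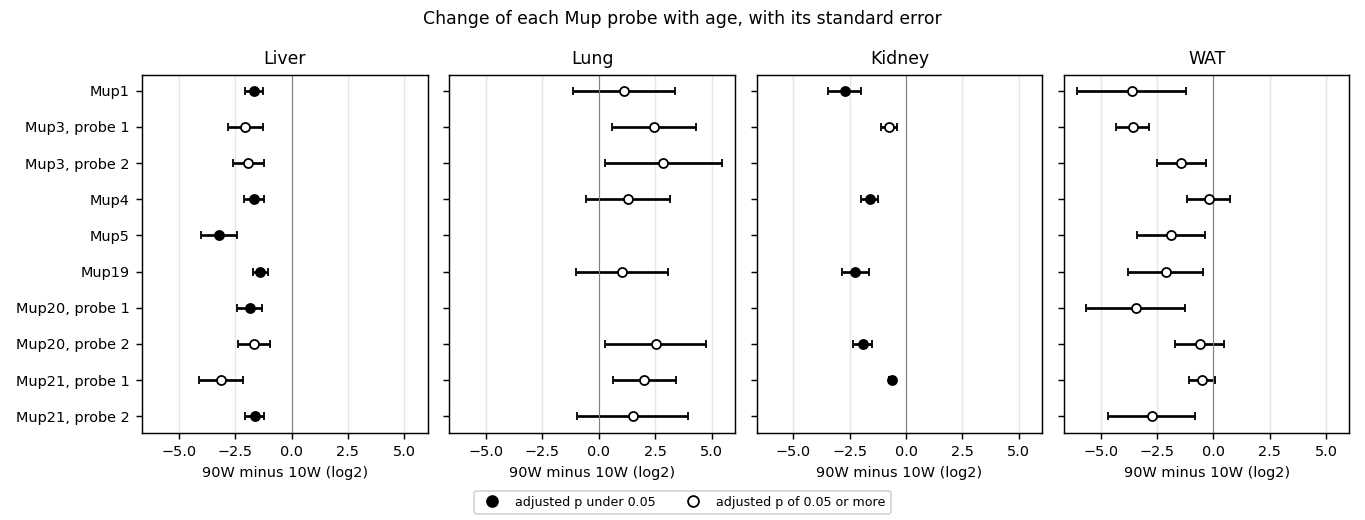
Change of each tested Mup probe from 10W to 90W (x axis, log2, points) with the standard error of limma (bars) in 4 tissues; filled points have an adjusted p under 0.05. In the liver all 10 estimates lie between -3.20 and -1.39, and in the lung all 8 lie above 0 with wide errors.

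The signals behind these values were high. In the young livers the probes read 13.7% to 92.8% of the brightest spot on their array, and 10.7% to 80.1% in aged liver 4; whether differences this close to the top of the scale are compressed was not tested. Before scaling, aged liver 4 was at or above at least 1 young liver in 7 of the 10 probes. Its Mup1 signal was 342352 units, against 341782, 378763 and 352922 in the young livers. The 75th percentile of that array was 436 units, against 259 to 307 in the young livers, which is why its scaled level is lower. Unscaled signals of aged livers 1 and 2 were 131451 and 89656 units for Mup1, below all young livers without any scaling. For all 10 probes, aged livers 1 and 2 were below every young liver in unscaled signal as well.

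The number of member probes called depended on the arrays included, and so did the number over all 35377 tested probes. That number, in either direction, was 9261 with all arrays. Without aged liver 4, 9 member probes passed, beside 8765 of all probes, and without aged liver 2, 4 passed, beside 5938. Those 4 were both probes of Mup3, Mup21 probe 1 and Mup5, of which only Mup5 had passed with all arrays. The other probes called with all arrays did not pass without aged liver 2. Without aged liver 1 or any young liver none passed limma after adjustment, with 7 to 9 still under an unadjusted p of 0.05. Over all probes, 5577 were called without aged liver 1 and 2890 to 6412 without a young liver. Quantile normalization left 1 of the 10 probes, beside 8355 of all probes. The methods' t-test left none after adjustment (5 unadjusted), beside 3269 of all probes. All 10 estimates stayed below 0 under each of these. The summed level of 9 leukocyte markers was 4.34 to 4.46 in young and 5.89 to 8.60 in aged livers, highest in aged liver 2. On an array 7 to 9 of them were well above background. Of these 9 markers, 5 were higher in all aged than in all young livers, 1 was lower and 3 overlapped. The summed level of the 14 hepatocyte markers was 13.50 to 13.67 in young and 12.95 to 13.34 in aged livers, all of them well above background on every array. Of these 14 markers, 9 were lower in all aged than in all young livers, 0 were higher and 5 overlapped. Over all tested probes, 32.7% were lower in all aged than in all young livers. In bulk tissue, fewer hepatocytes and less RNA per hepatocyte cannot be told apart, and the part of either marker list in the Mup values was not tested.

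Other genes with a sex-biased level in the mouse liver were set beside the members, each by its brightest probe. Male-biased genes, many of which are known to depend on the male growth hormone pattern, were called lower for 14 of 23 tested and higher for 0. Their median change was -1.47, and the part of growth hormone in it was not tested. Over all 16363 genes tested, 14.5% were called lower and 12.4% higher, with a median change of -0.16. The steroid dehydrogenase gene Hsd3b5 measured 5.91, 6.13 and 5.35 in young and -2.73, -5.55 and 2.76 in aged livers, and fell by 7.64 (standard error 1.84, adjusted p = 0.0268). Its level in aged liver 2 lay under the dimmest signal called well above background there, -4.97. Elovl3, a fatty acid elongase gene, fell by 6.63 (adjusted p = 0.0325), and Cyp4a12a, a cytochrome gene for fatty acid and arachidonic acid hydroxylation, fell by 6.19 (adjusted p = 0.0325). In all 3 of these genes aged liver 2 was the lowest and aged liver 4 the highest of the aged, as in most Mup probes.

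Female-biased genes went mostly the other way, with 10 of 19 tested called higher, 2 called lower and a median change of 2.04. Slc22a26, a gene for an organic anion transporter, measured -4.68, -4.71 and -4.10 in young livers, where 1 array was well above background, and 2.13, 2.91 and -0.11 in aged livers, and rose by 6.14 (standard error 0.71, adjusted p = 0.00308). Slc22a27, of the same transporter family, rose by 4.65 (adjusted p = 0.00202). Its level in young liver 3, -4.89, lay under the dimmest signal called well above background there, -4.60. Cyp3a44, a cytochrome gene, was at least 13.2-fold higher in aged livers (adjusted p = 0.0173), with no young liver well above background. The exceptions were Cyp3a16, which fell by 1.34, and Cyp2c69, which fell by 0.56 (adjusted p = 0.0424 for each). The male-biased count was 12 to 16 lower without aged liver 2 or 4 and under the other scalings and background correction, but 5 without aged liver 1. The female-biased count was 8 to 11 higher under all of these.

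Of 33 genes of growth hormone signalling and of regulators of Mup transcription, 3 (9.09%) were called higher and 3 (9.09%) lower, with a median change of -0.24. Over all genes tested, 12.4% were called higher and 14.5% lower. In a list of this size the gap to these shares is a few genes, and it was not tested. Cux2, which encodes a repressor found in the female liver and is on the female-biased list too, was at least 7.20-fold higher in aged livers (adjusted p = 0.0435), and again no young liver was well above background. Igfbp3, a carrier of insulin-like growth factor, rose by 1.40 (adjusted p = 0.0111), and Prlr, the prolactin receptor gene, rose by 0.78 (adjusted p = 0.0448). Hnf4g, a nuclear receptor gene, fell by 1.09 (adjusted p = 0.00839), Stat5a by 0.94 (adjusted p = 0.0311) and Igfals, a partner of Igfbp3 in serum, by 0.73 (adjusted p = 0.0467). Stat5b, the main mediator of the male pattern, had a change of -0.22 (adjusted p = 0.431), and the receptor gene Ghr one of -0.68 (adjusted p = 0.133).

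Among 39 other hepatocyte genes tested, 13 were called lower and 1 higher, with a median change of -0.46. Tdo2, of tryptophan breakdown, fell by 1.37 (adjusted p = 0.0460), Otc, of the urea cycle, by 1.22 (adjusted p = 0.0344) and Cyp1a2 by 1.18 (adjusted p = 0.0460). Itih3, an acute-phase gene, rose by 1.12 (adjusted p = 0.0475). Under quantile normalization this list gave 3 lower and 4 higher with a median of -0.01, and without aged liver 1 it gave 2 lower and 0 higher. Among 19 other lipocalin genes tested, 8 were called lower and 1 higher, with a median of -0.63. Lcn2, a neutrophil and acute-phase lipocalin, measured 1.08, 0.93 and 2.67 in young and 6.41, 9.02 and 4.17 in aged livers, and rose by 4.97 (adjusted p = 0.0231). Ptgds, the gene of prostaglandin D synthase, fell by 2.11 (adjusted p = 0.00826), the complement gene C8g by 0.97 (adjusted p = 0.0199) and Lcn6 by 0.94 (adjusted p = 0.0230).

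**Figure D3:**
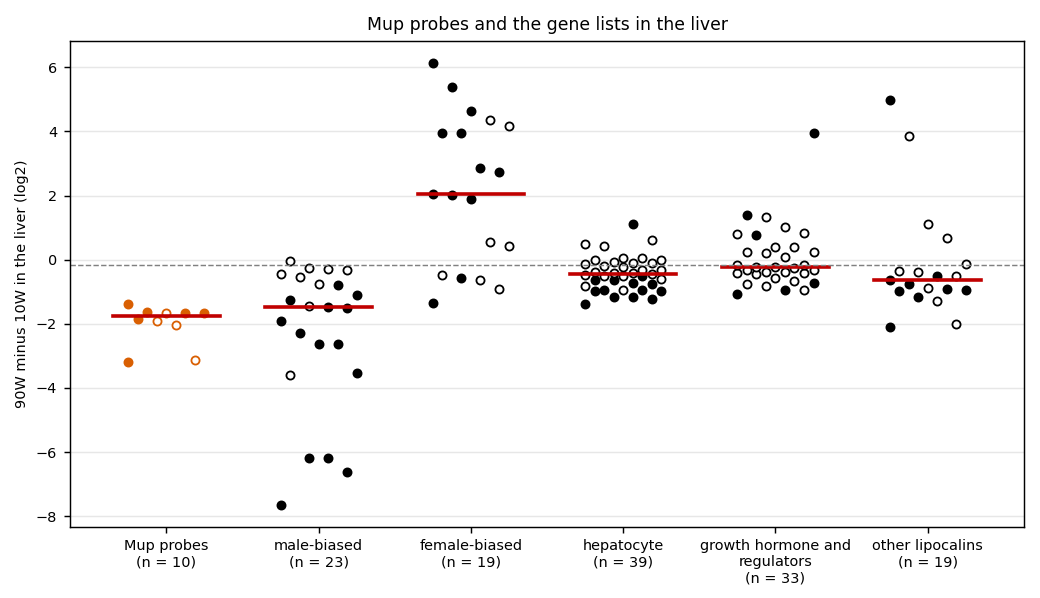
Change from 10W to 90W in the liver (y axis, log2) of the Mup probes and of genes of 5 lists by their brightest probe, with filled points for an adjusted p under 0.05, red bars for medians and a dashed line for the median of all genes tested. Medians are -1.77 for the Mup probes, -1.47 for male-biased and 2.04 for female-biased genes.

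The genes most like Mup20 in the liver were sought by the Pearson correlation of their brightest probe with Mup20 probe 2 over the 6 liver arrays, among 5265 genes with a standard deviation of at least 0.5. They were Ugp2, of UDP-glucose synthesis, with a correlation of 0.999, Gstt2, a glutathione transferase gene, with 0.998, Slco1a1, a male-biased transporter gene, with 0.997, Ece2 with 0.997 and Rhobtb3 with 0.995. The Ece2 probe was dim, and its level in aged liver 2, -5.69, lay under the dimmest signal called well above background there, -4.97. Slco1a1 measured 3.72, 3.81 and 3.84 in young and 1.21, -3.63 and 2.95 in aged livers. All 5 share the low value of aged liver 2, and 170 of the 5265 genes had a correlation above 0.95. Over all 24 arrays the most alike were Hao1, Apoc4, C8b, Gckr and Adh4, all of which are known from hepatocytes, with correlations of 0.968 to 0.975. Those points share the gap between the liver and the other tissues.

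In the lung no tested member passed (limma, 0 of 8 probes tested also at an unadjusted p of 0.05, against 5.49% of 38814 probes called in either direction). All 8 estimates were above 0, from 1.03 to 2.86, and they rested on aged lung 1. Mup19 measured -3.42, -0.35 and -1.91 in the young lungs and 3.75, -2.32 and -4.03 in the aged lungs. Mup20 probe 2 measured -6.22, -2.08 and -4.69 in young and 2.98, -3.08 and -5.29 in aged lungs. All 10 member probes were highest on the array of aged lung 1, and the other aged lungs lay within the range of the young or close to it. Without aged lung 1 the median change over the 8 probes went from 1.76 to -0.38, with 4 estimates above 0. The second probes of Mup3 and Mup21 and those of Mup1, Mup5 and Mup20 were not well above background in some lungs, and Mup5 and Mup20 probe 1 did not pass the filter for the test.

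The same array stood apart in hepatocyte markers. All 14 were highest on the array of aged lung 1, where their summed level was 8.99 and all were well above background, against 2.46 to 4.70 in the other lungs with 8 to 14 well above background. Alb was 6.68 in aged lung 1 and -3.08 to 1.08 in the others, Apoa1 was 1.70 against -7.51 to -4.57, and Fgb was 4.35 against -8.01 to -1.93. Among the young lungs, number 2 was the highest both in the Mup probes and in summed hepatocyte markers, at 4.70. Aged lung 1 also differed from the other lungs in technical measures. Of its probes 59.54% were well above background, against 66.05% to 70.03% in the other lungs. On its array 404 spots were dropped, more than on any other array. Its dimmest signal called well above background was -4.71, against -6.11 to -5.55 in the other lungs. The part of liver RNA or of array quality in the lung values was not tested.

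In the kidney 5 of 6 tested probes fell with age, those of Mup1, Mup4, Mup19, Mup20 and Mup21 (limma over 40044 probes, adjusted p from 0.00433 to 0.0182). The background in this tissue was high, at 42.3% of the probes called lower, and 47.4% with all aged kidneys below all young. Mup1 measured -5.14, -2.61 and -3.03 in young and -7.10, -6.41 and -5.44 in aged kidneys, and fell by 2.72 (standard error 0.74, adjusted p = 0.0182). Only 1 of these aged kidneys was well above background for Mup1. Mup19 measured -3.30, -0.75 and -1.59 in young and -4.12, -4.26 and -4.01 in aged kidneys, and fell by 2.25 (standard error 0.61, adjusted p = 0.0177). Young kidney 1 lay closest to the aged kidneys in both genes.

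Mup4 fell by 1.62 (standard error 0.37, adjusted p = 0.00947) and Mup20 probe 2 by 1.92 (standard error 0.41, adjusted p = 0.00732). Mup21 probe 1 was nearly level among young kidneys, at -3.81, -3.80 and -3.72, and measured -4.45, -4.58 and -4.19 in aged kidneys. It fell by 0.63 (standard error 0.12, adjusted p = 0.00433), the smallest change of the 5. Mup3 probe 1 had a change of -0.75 and overlapping groups (adjusted p = 0.112).

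The remaining 4 probes were too dim in the kidney for the test. Mup3 probe 2, Mup20 probe 1 and Mup21 probe 2 were not well above background in any aged kidney, and in 2, 1 and 2 of the young kidneys respectively they were. Since young kidney 1 lacked that call for all of them, no fold is given. Mup5 was not well above background on any kidney array. The probes that passed the filter are those that were measurable in the young kidney, so their count is not one over all members. With all 24 arrays in 1 fit none of the 6 passed after adjustment or before it, and without young kidney 3 or aged kidney 1 or 2, 3 did. Over all 40044 probes, 17062 were called in that fit, and 22878, 21811 and 21283 without these arrays, against 25124 in the main test.

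Marker genes of several cell types moved with age in the same kidneys. Of the 14 hepatocyte markers, 10 were lower in all aged than in all young kidneys, 3 were higher and 1 overlapped. Their summed level was 8.07 to 8.51 in young and 6.96 to 7.71 in aged kidneys, with 12 to 14 well above background, and is carried by the bright Serpina1 genes. Their median level was 1.98 to 2.06 in young and 1.83 to 2.05 in aged kidneys. Alb measured -0.03, -0.05 and -0.00 in young and -1.46, -1.39 and -1.28 in aged kidneys. The 3 higher markers were the fibrinogen genes Fga, Fgb and Fgg, with Fgb at -1.38 to -0.82 in young and 1.23 to 1.60 in aged kidneys. The 9 markers of kidney epithelium, all well above background, had a summed level of 10.39 to 10.62 in young and 9.21 to 9.83 in aged kidneys, and 7 of them were lower in all aged kidneys. The 9 leukocyte markers, 8 of them well above background, had summed levels of 4.15 to 4.72 in young and 5.22 to 5.74 in aged kidneys, and 7 were higher in all aged kidneys. The part of these genes in the Mup values was not tested.

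In WAT none of the 10 probes passed (limma, adjusted p of at least 0.0701; 1 probe at an unadjusted p of 0.05), against 0.582% of 38295 probes called lower. All 10 estimates were below 0, from -3.63 to -0.21, and the groups overlapped in 9 probes. The exception was Mup3 probe 1, which measured -1.51, -1.5 and 1.11 in young and -4.08, -4.67 and -3.90 in aged WAT (change -3.58, standard error 0.74, adjusted p = 0.0701). Its probe 2 measured -2.17, -2.73 and -0.17 in young and -5.02, -3.06 and -1.27 in aged WAT, with overlap. Without young WAT 3, Mup3 probe 1 passed (adjusted p = 0.0319).

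The mice of one age differed widely in the fat. Mup1 measured -0.47, -0.80 and 1.54 in young and -7.68, -4.98 and 2.05 in aged WAT. Mup19 measured 0.58, 0.49 and 3.05 in young and -3.30, -1.82 and 2.89 in aged WAT. In both genes the aged WAT numbered 3 was close to the highest young sample, and the other aged samples lay below all young ones.

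The probes of a gene disagreed in aged WAT. Mup20 probe 1 measured -7.61, -7.83 and 0.15, whereas probe 2 measured -1.78, 0.12 and -3.33 on the same arrays. In young WAT both probes had the order of the other members, with number 3 highest, at -0.15 and 0.74. Mup21 probe 2 measured -5.96, -3.93 and 1.55 in aged WAT, and probe 1 stayed at -4.48, -4.91 and -3.98. Mup4 measured -2.36, -0.44 and 0.48 in aged and -1.24, -1.46 and 1.02 in young WAT. Over the 6 WAT arrays the correlations between member probes ran from -0.228 to 0.996, with a median of 0.719, and in the liver their median was 0.970.

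Hepatocyte markers differed less between the aged WAT samples than Mup1 and Mup19 did. In young WAT the summed level of the 14 markers was highest in number 3, at 5.85 against 3.84 and 4.08, with 13 of 14 well above background in each. In aged WAT the summed level was 2.94, 2.97 and 3.60, in the same order as Mup1 and Mup19, with 8 or 9 of 14 well above background. Of the 14 hepatocyte markers, 11 were lower in all aged than in all young WAT, 0 were higher and 3 overlapped. In aged WAT 3, where Mup1 and Mup19 were high, Alb was -1.66, Apoa1 -7.65 and Fgb -7.12, while Apoc3 was 2.51, the highest of the WAT samples. The summed level of the 9 leukocyte markers was higher in aged WAT, at 7.06 to 8.70 against 4.49 to 5.81. Of these markers, 6 were higher in all aged than in all young WAT and 3 overlapped. The neutrophil gene Ngp measured 5.32 in aged WAT 3 and 1.75 in young WAT 3 and was at or below -5.51 in the other WAT samples. The kidney marker list was highest in young WAT 1, with a summed level of 2.60 against at most 0.35 in the other WAT samples. The part of these cell types in the WAT values was not tested. The plot of Mup probes and hepatocyte markers outside the liver shows both on each array.

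**Figure D4:**
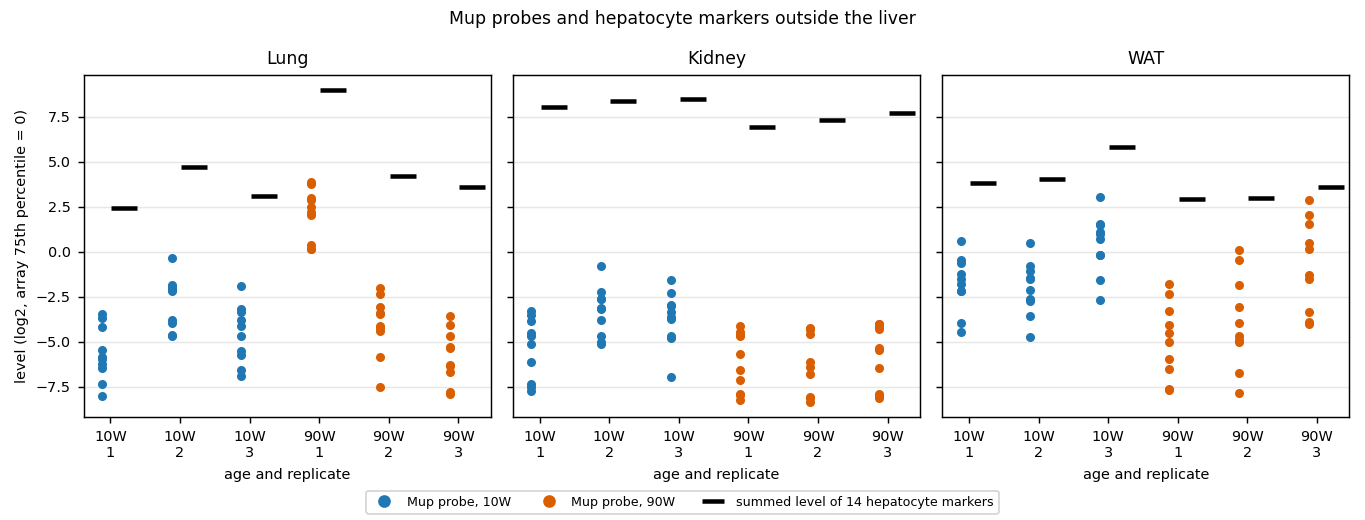
Levels of the 10 Mup probes (points) and the summed level of 14 hepatocyte markers (bars) on each array of lung, kidney and WAT (x axis, age and replicate; y axis, log2 with the 75th percentile of the array at 0). Both are highest on the first 90W lung. On the third 90W fat sample the Mup probes range from -3.98 (Mup21 probe 1) to 2.89 (Mup19), beside a summed marker level of 3.60.

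Whether the change with age differed between tissues was tested in 1 fit of all 24 arrays. No probe passed the test of the liver change against the mean change of the other tissues (limma, adjusted p of at least 0.0833, 1 probe at an unadjusted p of 0.05), against 9.95% of 44074 probes. The difference between the liver change and that mean ran from -3.42 for Mup21 probe 1 to 0.07 for Mup1, with a median of -1.45. Without aged lung 1 the median became -0.64 and Mup21 probe 1 passed (adjusted p = 0.0396). Taken against the lung by itself, Mup21 probe 1 differed by -5.15 (adjusted p = 0.0320), and against the kidney or WAT no member did (adjusted p of at least 0.251).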

How the data were processed

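Gene expression was measured in 24 samples by 1-colour arrays (Cy3), with 3 male C57BL/6J mice per age and tissue. The deposited intensity values were made by the authors with Agilent Feature Extraction 11.0.1.1: a processed signal for each of 62976 spots, background-subtracted and not scaled between arrays, with flags for spots well above background. The file headers give a mouse design and the build mm9. The methods section instead names a human expression kit. Probe accessions were matched, without version, to RefSeq symbols (assembly GRCm38.p6), for 32994 of 56605 probes. Outlier and uneven spots were dropped, replicate spots were averaged after log2, and each array was set to its own 75th percentile. For each tissue, probes that at least 3 of its 6 arrays called well above background were compared between ages with limma 3.58.1 (lmFit and eBayes, R 4.3.3) and Benjamini-Hochberg adjustment over all probes of the tissue, called at an adjusted p under 0.05. Tissues and the difference in age change were compared in a fit of 8 groups over probes with that call on 3 or more of the 24 arrays. Where no array of the dimmer group was well above background, the fold is a bound. It was taken against the dimmest signal that an array still called well above background, or the probe's own level where that was higher. That limit belongs to the array and not to the single probe, so the bound is approximate. Because an exact two-sided permutation test of 3 against 3 cannot give a p under 0.1, no such test is given, and the number of arrays limits the precision. The fits were tested on simulated data.

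All members were named with every probe. Of each gene list, at most 3 genes per direction with the largest change among those called, and with the brighter group well above background on all its arrays, were named, and of genes like Mup20 the 5 with the highest correlation. Further genes were named for their role. The members, lists and markers were chosen with earlier results of these data known. A list of 10 salivary, lachrymal and mammary gland genes was also read, and its summed level in WAT was 3.80 to 5.06 in young and 3.28 to 4.29 in aged samples, led by Amy1. Alternatives were normexp background correction, quantile, median and spike-in scaling, other filters, 1 value per gene, all arrays in 1 fit, the methods' unpaired t-test, the replicate number as a block and each array left out. A comparison of the liver with the lung alone, and its repeat without aged lung 1, were added after seeing the data. A text file with the series' metadata was not used.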

Additional observations from a re-analysis of the deposited data

Results flagged for a closer look

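Mup21 probe 1 was flagged because its change with age differed between the liver and the lung by a test of the difference itself: the liver change minus the lung change was -5.15 on the log2 scale (limma, adjusted p = 0.0320), in a comparison added after seeing the data. Without aged lung 1, the array with high hepatocyte markers, the difference was -3.48 (adjusted p = 0.0497). In the tests by tissue this probe passed neither in the liver (limma, adjusted p = 0.0504) nor in the lung (adjusted p = 0.387). Outside aged lung 1 its lung levels were -5.50 to -4.41. The dimmest signals called well above background on those arrays were -6.11 to -5.55, so these levels lay near the floor. The flagged difference was 1 of 30 single-tissue differences computed for the 10 probes. Probe 2 of Mup21 did not pass this test, at -3.14 (limma, adjusted p = 0.4965). Without aged lung 1 it gave -0.50 (adjusted p = 0.922). Groups of 3 arrays are too small for a test of single outlying samples, and none was run.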

How the results depend on the processing

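The sign of the change was negative for all 10 probes in the liver and for all tested probes in the kidney under every alternative, while the number called moved. In the liver, 6 probes became 1 under quantile normalization, 1 with all 24 arrays in 1 fit, 0 by the methods' t-test and 10 under spike-in scaling. Leaving out single arrays gave 0 to 9. Over all 35377 liver probes, 9261 calls in either direction became 8355, 14481, 3269 and 5510 in that order. Leaving out single arrays gave 2890 to 8765 there. Spike-in scaling moved the median change of all liver probes from -0.20 to -0.74, and limma then took the spread as common to all probes, which makes its p-values small. In the kidney, 5 probes became 8 without a filter, 3 with probes above background on all 6 arrays, 0 with all 24 arrays in 1 fit and 3 by the t-test. Leaving out single arrays gave 3 to 6. Over all kidney probes, calls on 25124 of 40044 became 32222 of 56605, 22971 of 35068, 17062 and 22752 in that order. Leaving out single arrays gave 21283 to 24102 there. In the lung none passed under any alternative. In WAT, 1 probe passed under spike-in scaling, and leaving out single arrays gave 0 to 1. The difference between liver and other tissues, 0 probes, became 1 under normexp, under spike-in scaling and with a replicate block within each age; leaving out single liver arrays gave 0 to 1. All 10 probes remained higher in the young liver under each alternative run by probe, and all 7 genes by their brightest probe.

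With the replicate block within a tissue, 7 liver probes and 6 kidney probes passed, and 0 passed in lung or WAT. In the liver only numbers 1 and 2 occur at both ages, so the block leaves aged liver 4 out of the estimate, and the median change was -2.37 with it and -2.38 without aged liver 4. Same-numbered young and aged samples had correlations of their deviations from -0.169 to 0.155, and those with different numbers from -0.168 to 0.253. These few correlations were not tested and cannot show whether the numbers pair the samples, which the labels do not tell.

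Of 500 values for single probes, 10 changed sign. In the lung, leaving out single arrays gave -1.34 to 2.86 for Mup1, -0.88 to 2.69 for Mup4, -1.28 to 2.61 for Mup19 and -1.13 to 3.64 for Mup21 probe 2, with values below 0 only without aged lung 1. In WAT it gave -0.84 to 0.58 for Mup4, -0.90 to 0.13 for Mup21 probe 1 and -1.5 to 0.29 for Mup20 probe 2. These were above 0 without young WAT 3, Mup4 also without aged WAT 1 and Mup20 probe 2 also without aged WAT 3, where it was 0.23. Spike-in scaling put Mup4 in WAT at 0.030. The cause of these shifts was not tested. Signal over background limits the kidney and lung values, many of which lie near the floor, and the number of mice limits all of them.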
